A study of Caenorhabditis elegans with 2 samples.

Results

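Among the binding sites mapped for the transcription factor FOS-1 in the first larval stage of Caenorhabditis elegans, 307 carried a GA repeat at the summit. They were found among 1869 peaks on the nuclear chromosomes in the authors' IDR list (IDR stands for irreproducible discovery rate, a procedure that weighs how alike peaks rank in replicates). A peak was taken if the reference sequence within 50 bp of its summit, on either strand, held a run of at least 7 bases that strictly alternated G and A and started and ended with G (GAGAGAG or longer). The rule used sequence and the position of the summit, not signal. The 307 peaks were compared with the other 1562 nuclear IDR peaks. The IDR list held 1895 peaks in all, of which 26 were mitochondrial and were left out.

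Chromatin immunoprecipitation and sequencing (ChIP-seq) was done on whole animals with the sexes pooled, in 2 biological replicates of 1 group from separate biosamples. The strain was OP304, with the genotype unc-119(ed3) III; wgIs304, in which a transgene inserted in the genome supplies FOS-1 tagged with eGFP. The labels do not say from which promoter the transgene is expressed or in which cells, and the lysate of whole larvae mixes all tissues. There was no second genotype, stage or treatment, so no condition was compared. With 1 group of 2 replicates no significance test was made: intervals are 95% intervals over peaks, genes or genomic runs, they cover counting error only, and neighbouring peaks are not independent.

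FOS-1 belongs to the Fos family; these basic leucine zipper proteins form dimers, often with Jun, and bind the AP-1 site TGASTCA (S is C or G). A GA repeat is not an AP-1 site. In Drosophila, GA repeats are bound by the GAGA factor, a BTB zinc finger protein known for opening chromatin at promoters and other regulatory elements. GA and CT repeats also form simple-sequence tracts in introns and between genes in many animals.

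The sequences of 10 of these peaks are given because they show the range of repeats that the rule takes in: the 6 peaks of highest signal and then the 4 with the longest runs among those on chromosomes II, III, IV, V and X. The remaining autosome was left out of the printed sequences, and its runs of 65 and 59 bases, longer than some shown, are described further on. Each runs from 50 bases before to 50 bases after the summit in build ce11, read 5′ to 3′ on the strand on which the repeat reads as G and A, with the runs of at least 7 bases on that strand in capitals. The name is that of the protein-coding gene with the nearest annotated 5′ end.
F09E5.14 (II:5336983-5337083, plus strand): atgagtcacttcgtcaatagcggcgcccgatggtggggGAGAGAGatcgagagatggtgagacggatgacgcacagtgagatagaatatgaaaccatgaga
tasp-1 (III:10759212-10759312, plus strand): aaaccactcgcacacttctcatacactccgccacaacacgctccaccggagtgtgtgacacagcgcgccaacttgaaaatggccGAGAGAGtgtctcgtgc
K12H4.5 (III:8043915-8044015, minus strand): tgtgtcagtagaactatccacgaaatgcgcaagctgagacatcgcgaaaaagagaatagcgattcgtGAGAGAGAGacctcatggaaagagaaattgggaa
din-1 (II:11635836-11635936, plus strand): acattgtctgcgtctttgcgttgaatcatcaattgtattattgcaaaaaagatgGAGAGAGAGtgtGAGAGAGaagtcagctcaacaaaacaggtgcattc
rho-1 (IV:16490117-16490217, plus strand): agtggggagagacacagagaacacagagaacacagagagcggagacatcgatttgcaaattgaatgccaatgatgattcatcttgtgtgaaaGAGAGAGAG
eef-1A.2 (X:7823232-7823332, plus strand): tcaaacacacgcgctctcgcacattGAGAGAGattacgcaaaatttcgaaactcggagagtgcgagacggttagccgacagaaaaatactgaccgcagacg
Y50D4C.12 (V:979895-979995, minus strand): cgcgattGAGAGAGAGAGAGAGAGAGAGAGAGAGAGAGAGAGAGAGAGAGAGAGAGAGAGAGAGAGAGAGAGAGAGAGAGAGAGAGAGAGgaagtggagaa
Y24D9A.6 (IV:4401074-4401174, minus strand): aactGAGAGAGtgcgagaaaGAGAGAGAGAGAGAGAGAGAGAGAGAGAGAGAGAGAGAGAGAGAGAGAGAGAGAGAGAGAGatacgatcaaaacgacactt
daf-2 (III:3037426-3037526, plus strand): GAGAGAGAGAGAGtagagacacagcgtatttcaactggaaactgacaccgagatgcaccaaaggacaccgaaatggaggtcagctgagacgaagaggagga
ari-2 (IV:5561620-5561720, minus strand): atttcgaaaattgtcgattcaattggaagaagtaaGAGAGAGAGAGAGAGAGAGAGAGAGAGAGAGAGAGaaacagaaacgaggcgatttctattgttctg

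In 5 of the 6 windows of highest signal the whole run, of 7 or 9 bases, lies inside the window, and in these it is a short patch in otherwise mixed sequence. The window near rho-1 shows 9 bases of a 13-base run that continues past its edge. The windows of the longest runs look different, since most of the window near Y50D4C.12 is the repeat itself (83 bases), and the window near daf-2 holds only the end of a 41-base run. The window of highest signal, near F09E5.14, also begins with an AP-1 site, TGAGTCA.

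Short runs made up most of the set. The longest run had 7 bases in 192 of the 307 peaks, 9 bases in 43, 11 or 13 bases in 32 and 15 or more in 40, up to 83 bases. A single run lay in the window of 262 peaks, while 45 held 2 or 3. The repeat read as GA on the plus strand in 149 peaks, on the minus strand in 147 and on both in 11. In the reference, 127 of the 307 runs (41.4%) touched soft-masked sequence, the marking for repeats and low complexity; this was so for 39 of 192 runs of 7 bases and for all 40 runs of 15 bases or more. At the threshold of the rule, the 192 peaks just inside it, with a run of 7 bases, had a median pooled signal of 66.8, and the 599 peaks just outside, with a longest run of 5 bases, 62.4. Likewise the median was 64.9 for the 51 peaks whose run lay only 41 to 50 bp from the summit and 64.8 for the 47 peaks left out because their run lay 51 to 60 bp away.

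GA runs were concentrated around the summits, in the IDR list and in each replicate's own list. In the 20 bp bins on either side of the summit, 4.12% of the IDR peaks had a run centred there, against 0.214% in the bin that starts 500 bp to the left (towards lower coordinates). The bin just before the summit held a run in 4.44% of the top 1869 entries of replicate 1 and in 3.10% of those of replicate 2, each measured from that replicate's own summit. The profile was broad, still at 2.35% of IDR peaks 80 to 100 bp to the right and 0.963% at 160 to 180 bp. In the weakest 10167 entries of the pooled list the bins next to the summit reached 0.620% and 0.659%, against 0.364% in the bin farthest to the left. Within the 307 peaks the centre of the run lay a median of 22 bp from the summit (95% interval 18 to 26); the rule's limit of 50 bp sets this distance, so it is given only as a description. The summit base was inside the run in 47 peaks. Each replicate's own summit had a run within 50 bp in 262 peaks (85.3%) for replicate 1 and in 241 (78.5%) for replicate 2, and both did in 209 peaks (68.1%).

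**Figure D1:**
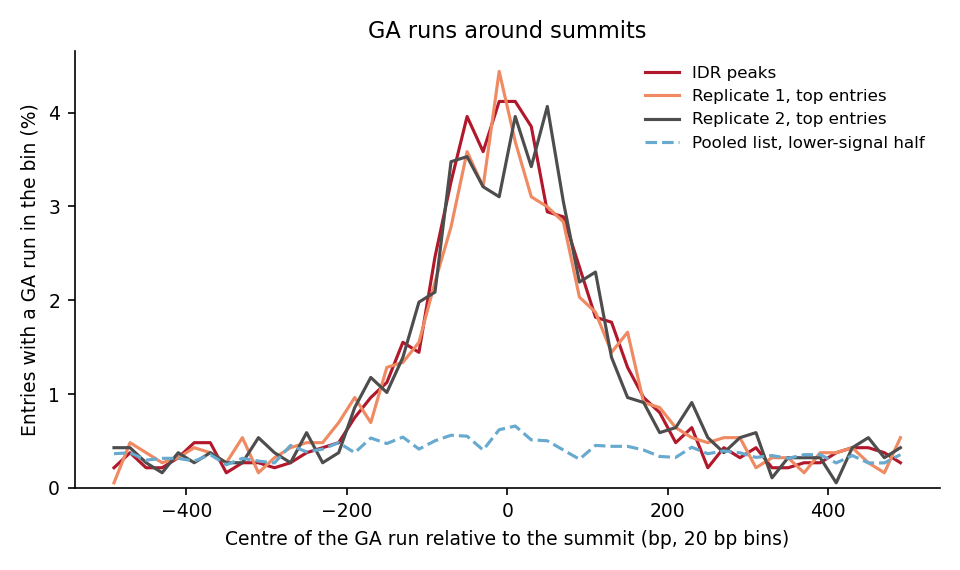
Share of entries with a GA run centred in each 20 bp bin (y axis, %) by distance of the run's centre from the summit (x axis, bp), for the 1869 nuclear IDR peaks, the top 1869 entries of each replicate and the weakest 10167 entries of the pooled list. The IDR peaks and both replicates rise around the summit, with 4.12% of IDR peaks in each bin next to it, while the weakest entries reach 0.620% and 0.659% there.

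The share of entries with a GA run fell with rank in all lists. The pooled list was cut into bins of 1869 entries by signal, the top bin being exactly the nuclear IDR peaks. Its bins held a run in 16.4% (307 of 1869, interval 14.8% to 18.2%), then 10.5%, 6.90% and 4.98%, and 1.95% in the last (32 of 1645). The top bin had 14.98% (280 entries) in replicate 1 and 15.6% (291 entries) in replicate 2, against 1.38% and 2.14% in their last bins. For comparison, 1.36% of all tiles of the nuclear genome of the same length as these windows held such a run, and a window 400 bp to the side of the summit held one in 1.30% of the GA-repeat peaks and 1.15% of the other peaks. Of the pooled entries with a run, 28.5% (307 of 1076) were in the IDR list, against 8.11% of those without (1562 of 19259) and 9.19% of all pooled nuclear entries. That share was alike over the lengths, at 27.8% for runs of 7 bases, 29.5% for 9, 27.6% for 11 or 13 and 32.5% for 15 or more, with overlapping intervals.

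**Figure D2:**
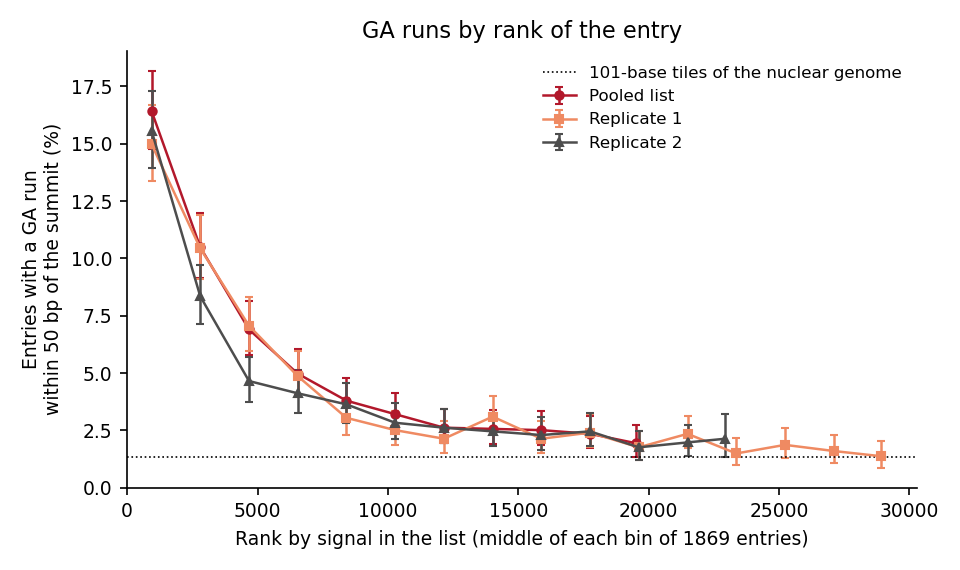
Share of entries with a GA run within 50 bp of the summit (y axis, %, with 95% Clopper-Pearson intervals) by rank of the entry in bins of 1869 (x axis), for the pooled list and each replicate; the dotted line is the share of nuclear genome tiles of the same length. All lists start at 14.98% to 16.4% and come down to between 1.38% and 2.14% in their last bins, near the genome's 1.36%.

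Within the IDR list, the signals of peaks with and without a GA run overlapped, and their medians could not be told apart. The share of peaks with a run was 16.4%, 18.4%, 15.8%, 15.2% and 16.3% in 5 parts of the list of equal size, from highest to lowest signal. The median pooled signal, in the authors' units whose scaling is not stated, was 65.8 (interval 61.5 to 69.8) in GA-repeat peaks and 62.7 (61.2 to 64.4) in other peaks. The medians in the lists of the replicates were 40.3 and 40.4 in replicate 1 and 26.1 and 24.6 in replicate 2, GA-repeat peaks first in each pair. Among the top entries of replicate 2 ranked on their own, by contrast, the median was higher with a run (log2 ratio 0.15) and the intervals of the medians did not overlap. The highest GA-repeat peak ranked 13 of the nuclear peaks with a signal of 342, against a maximum of 688 among the more numerous other peaks. The 40 peaks with runs of 15 or more bases had signals from 42.8 to 121, with a median of 60.8 (54.8 to 70.4). For the more numerous 192 with runs of 7 bases the signals ran from 42.7 to 342, with a median of 66.8 (61.5 to 74.5). The intervals of these medians overlapped.

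GA-repeat peaks lay in promoters less often than the other peaks. Promoter windows reached from 1000 bp before to 200 bp past the 5′ end of each protein-coding gene in the annotation; many worm transcripts are trans-spliced, so an annotated 5′ end can lie downstream of where transcription starts. The summit was in such a window in 128 of 307 GA-repeat peaks (41.7%, interval 36.1% to 47.4%) and in 988 of 1562 other peaks (63.3%, 60.8% to 65.6%), a difference of -21.6 percentage points (-27.4 to -15.5); over all nuclear IDR peaks the share was 59.7%. In the replicates taken alone the shares were 43.6% and 44.0% for entries with a run, a mean of 43.8% ± 0.293 (SD, n = 2). For entries without a run they were 60.10% and 60.01%. The differences were -16.5 points (-22.7 to -10.2) in replicate 1 and -16.0 points (-22.1 to -9.79) in replicate 2. The SD rests on 2 values and does not hold the counting error of each share (37.7% to 49.6% and 38.2% to 49.9% with a run), so it does not measure the gap. Divergent promoters, with windows on both strands, took up 33 GA-repeat peaks (10.7%) and 336 other peaks (21.5%). The nearest 5′ end was a median of 1130 bp away (940 to 1387) in GA-repeat peaks and 370.5 bp (336 to 420) in other peaks. Among entries of the pooled list ranked just below the IDR peaks this gap was not seen: 41.8% of 196 entries with a run and 42.6% of 1673 entries without were in promoter windows, a difference of -0.781 points (-7.88 to 6.60). The deficit is against other peaks, not against the GA runs of the genome, of which 25.5% lay in promoter windows. Runs in promoter windows were at an IDR summit in 3.75% of cases (142 of 3784), and runs elsewhere in 1.94% (215 of 11079).

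Outside promoter windows, 107 GA-repeat peaks (34.9%) lay between genes, 66 (21.5%) in introns, 6 (1.95%) in 5′ untranslated regions and none in coding exons or 3′ untranslated regions. Among the other peaks 306 (19.6%) lay between genes, 244 (15.6%) in introns and 8 (0.512%) in 5′ untranslated regions. Coding exons held 9 of them (0.576%) and 3′ untranslated regions 7 (0.448%). For these last places the intervals of the difference included 0. The 0 of 307 in coding exons allows a share of up to 1.19% (Clopper-Pearson). The intergenic excess was 15.3 percentage points (9.76 to 21.1). For introns as a whole the sign was not stable, since the share with the summit in an intron was 24.4% and 18.7% in the IDR list, 21.1% and 19.3% in replicate 1 alone and 19.2% and 21.9% in replicate 2 alone, for peaks with and without a run. Near non-coding RNA genes of all classes the interval of the difference included 0: 24.4% of GA-repeat peaks and 26.4% of other peaks were in the promoter window of such a gene (difference -1.95 percentage points, -6.95 to 3.58). Of the classes, tRNA and snoRNA genes had intervals of the difference below 0, while those for miRNA (0.977% and 1.09%), snRNA (0.326% and 1.47%), lincRNA and ncRNA genes (19.5% and 18.9%) included 0. The summits of 8 GA-repeat peaks (2.61%) were in the promoter window of a tRNA gene and those of 6 (1.95%) in that of a snoRNA gene, against 98 (6.27%) and 90 (5.76%) of the other peaks. These differences by class were not taken for each replicate alone, and no allowance was made for looking at several classes.

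Peaks with the longest repeats were less often in promoters than those with the shortest. The summit was in a promoter window in 98 of 192 peaks with a run of 7 bases (51.04%, interval 43.7% to 58.3%), 13 of 43 with 9 bases (30.2%), 12 of 32 with 11 or 13 (37.5%) and 5 of 40 with 15 or more (12.5%, 4.19% to 26.8%). Between 15 or more and 7 bases the difference was -38.5 percentage points (-48.5 to -23.2). It was -31.8 in replicate 1 alone (6 of 28 against 90 of 169) and -28.5 in replicate 2 alone (9 of 39 against 96 of 186). Soft masking moved with length: among peaks with soft-masked runs, 5 of 40 with 15 or more bases and 23 of 39 (59.0%) with 7 bases were in promoter windows, and the part of masking in the difference was not tested. Of the 40 peaks with the longest runs, 24 were intergenic and 11 intronic outside promoter windows, a median of 2514.5 bp from the nearest 5′ end. These lengths were compared after the values had been seen.

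**Figure D3:**
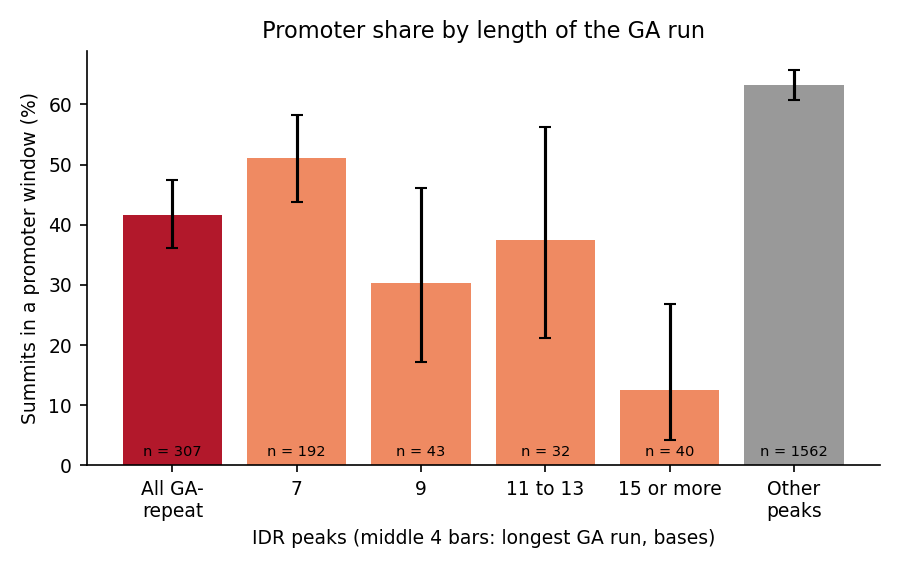
Share of summits in a promoter window (y axis, %, with 95% Clopper-Pearson intervals) for all 307 GA-repeat peaks, for these peaks by the length of the longest GA run, and for the other 1562 nuclear IDR peaks. The share is 41.7% in all GA-repeat peaks, 51.04% with runs of 7 bases and 12.5% with runs of 15 bases or more, against 63.3% in the other peaks.

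Seen from the genome, few GA repeats were at a peak. The nuclear chromosomes held 14863 runs of at least 7 bases, of which 357 (2.40%) lay within 50 bp of an IDR summit and 1185 (7.97%) within 50 bp of a summit of the pooled list. Outside promoter windows, runs of 15 or more bases were at a summit more often than runs of 7 bases, with the classes between them in the middle and not in order of length: 1.48% of runs of 7 bases (123 of 8298), 2.60% of 9 bases, 2.42% of 11 or 13 bases and 5.96% of 15 or more (38 of 638) were at an IDR summit, and the difference between 15 or more and 7 bases was 4.47 percentage points (2.86 to 6.60). At the top summits of each replicate it was 2.57 (1.29 to 4.39) for replicate 1 and 3.83 (2.34 to 5.85) for replicate 2. In promoter windows the shares were 3.84%, 3.46%, 4.05% and 2.41% from the shortest to the longest class, and the interval of the difference between the ends (-1.43 points, -3.09 to 2.24) included 0, as in the replicates alone (0.221 and 1.11 points). Genomic runs of 15 or more bases lay in promoter windows in 20.6% of cases, against 25.8% for runs of 7 bases, a smaller gap than among the peaks. Promoters with a run between 300 bp upstream and the 5′ end had an IDR summit in that stretch in 143 of 1394 cases (10.3%, interval 8.71% to 12.0%), against 732 of 18579 (3.94%, 3.66% to 4.23%) without a run. Over the whole promoter window the shares were 12.1% (411 of 3404) with a run and 6.68% (1106 of 16569) without. In both counts the run and the summit need only share the stretch, and the summit need not be at the run. A GA-repeat peak lay in the promoter window of 168 genes.

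**Figure D4:**
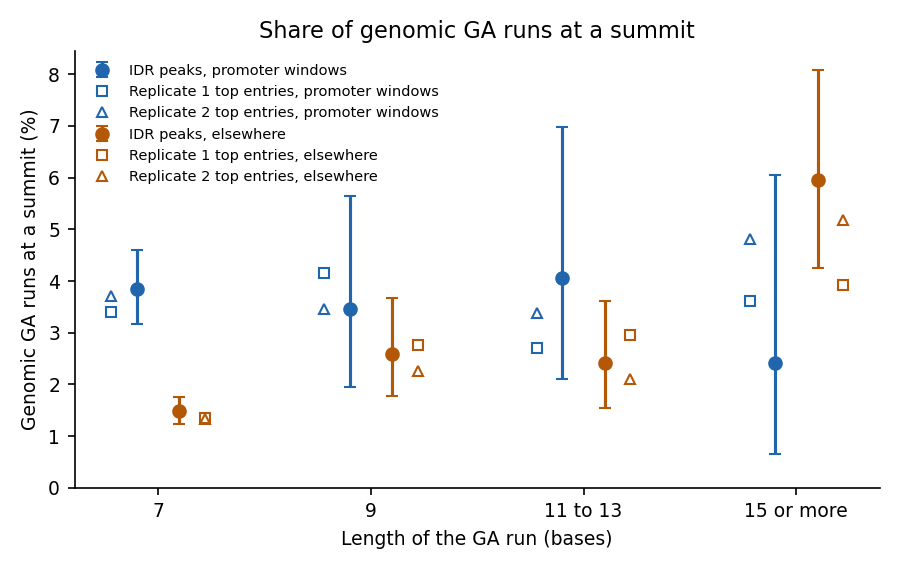
Share of all GA runs of the nuclear genome that lie at a summit (y axis, %) by length of the run (x axis, bases), for runs in promoter windows and elsewhere; filled points with 95% Clopper-Pearson intervals are IDR summits, open squares and triangles the top summits of replicates 1 and 2. Elsewhere the share is 5.96% for runs of 15 or more bases, against 1.48% for 7 bases, while promoter runs stay between 2.41% and 4.05%.

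The strongest of these peaks were mixed in position. The highest pooled signal, 342, lay at II:5336899-5337185 in an intron of vhp-1, a MAP kinase phosphatase; the gene with the nearest 5′ end is F09E5.14, 7842 bp away. Its signal was 216 in replicate 1 and 130 in replicate 2, ranks 17 and 7. Next came the peak 45 bp upstream of tasp-1 (III:10759140-10759374), with 338 in the pooled list, 205 in replicate 1 (rank 19) and 137 in replicate 2 (rank 5). The peaks near K12H4.5 (signal 279, 522 bp upstream), din-1 (266, 2277 bp upstream) and rho-1 (264, 1146 bp upstream) followed. din-1 encodes a corepressor partner of the nuclear receptor DAF-12, and rho-1 the RhoA GTPase of the actin cytoskeleton. All 5 ranked 37 or better in replicate 1 and 24 or better in replicate 2.

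The next 10 by signal had pooled signals of 178 to 220. The peak 372 bp upstream of eef-1A.2, a translation elongation factor, had a signal of 220 and ranks 49 and 52 in the replicates. A peak with a signal of 218 lay in an intron of rme-1, a regulator of endocytic recycling, 4075 bp upstream of str-206, the gene with the nearest 5′ end. A pair of hypoxia genes was in this group: the peak 1725 bp upstream of egl-9, the prolyl hydroxylase that marks HIF-1 for degradation, had a signal of 197 (ranks 57 and 86), and the peak 1958 bp upstream of hif-1 itself had 193 (ranks 42 and 119). The others were nearest to mtm-3 (a myotubularin phosphatase, 1067 bp upstream), zfp-3, egl-30 (the Gq alpha subunit, 56 bp upstream), Y75B8A.23, sir-2.2 (a sirtuin, in its own intron) and hsp-1 (the constitutive Hsp70, 396 bp upstream). Of these 15 strongest peaks 7 were in promoter windows, 5 intergenic beyond them and 3 intronic, and 11 had a run of only 7 bases.

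The 8 peaks with the longest runs, 35 to 83 bases, had pooled signals of 47.3 to 108. The 83-base run was at V:979775-980114, 2636 bp upstream of Y50D4C.12, with a pooled signal of 50.5 and ranks of 1886 and 1048 in the replicates. A 65-base run lay in an intron of kin-1, the catalytic subunit of protein kinase A (signal 60.2), and a 35-base run in an intron of gsa-1, the Gs alpha subunit (63.9). A 41-base run lay in an intron of daf-2, the insulin and IGF receptor, 3370 bp downstream of its 5′ end (47.3, ranks 2152 and 1271). Runs of 61 and 59 bases were in introns of ell-1 and rbg-2, within the promoter windows of Y24D9A.6 and T22C1.11. The other 35-base runs were nearest to Y48G8AR.8 (108, the highest signal of the 8) and to ari-2, whose 5′ end was 10536 bp away. Reads from such tracts can be hard to place, and how multiply mapped reads were treated is not given in the sources used here, so mapping and soft masking were not tested as causes of these values.

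The replicates ranked the GA-repeat peaks about as alike as the others. Among them, 306 (99.7%) overlapped an entry in replicate 1 and 306 (99.7%) in replicate 2, against 99.8% and 99.3% of the other peaks. The IDR list was made with these replicate lists, so this overlap is a description. The top 1869 entries of both replicates were overlapped by 206 GA-repeat peaks (67.1%, interval 61.5% to 72.3%). This compares with 1054 of the other peaks (67.5%) and 67.4% of all nuclear IDR peaks. The difference was -0.377 percentage points (-6.27 to 5.17). Across 305 GA-repeat peaks listed in both replicates Spearman's rho of the signals was 0.58, and across 1548 other peaks it was 0.59; the points share 2 libraries, so these are descriptions. The pooled summit lay a median of 12 bp from the summit of replicate 1 and 18 bp from that of replicate 2 in GA-repeat peaks, and 9 and 15 bp in other peaks. The peaks that missed a list were nearest to dna-2 and sys-1.

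Some peaks ranked far higher in 1 replicate than in the other, which was not particular to GA-repeat peaks. The log2 ratio of replicate 1 to replicate 2 signal ran from -0.891 to 2.50 in them and from -1.41 to 3.34 in other peaks. The examples are extremes of the rank ratio. The peak 838 bp upstream of F13H10.6 had a signal of 79.9 in replicate 1 (rank 221) and 14.2 in replicate 2 (rank 2688). Similar gaps were seen at a peak in an intron of soc-2, a scaffold of Ras signalling, nearest to tkr-3 (ranks 351 and 3832), and at tbc-6 (860 and 7878). In the opposite direction stood peaks in lron-13 (ranks 5542 and 739) and in C53D5.1 (5571 and 874), and the peak 174 bp upstream of mep-1, a zinc finger gene (2742 and 486). The 5 GA-repeat peaks of lowest signal, 42.5 to 42.8, were nearest to srab-24, T10B10.4, elmd-1, Y47G6A.7 and F08C6.18 and ranked between 1327 and 3674 in replicate 1 and between 949 and 6543 in replicate 2.

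**Figure D5:**
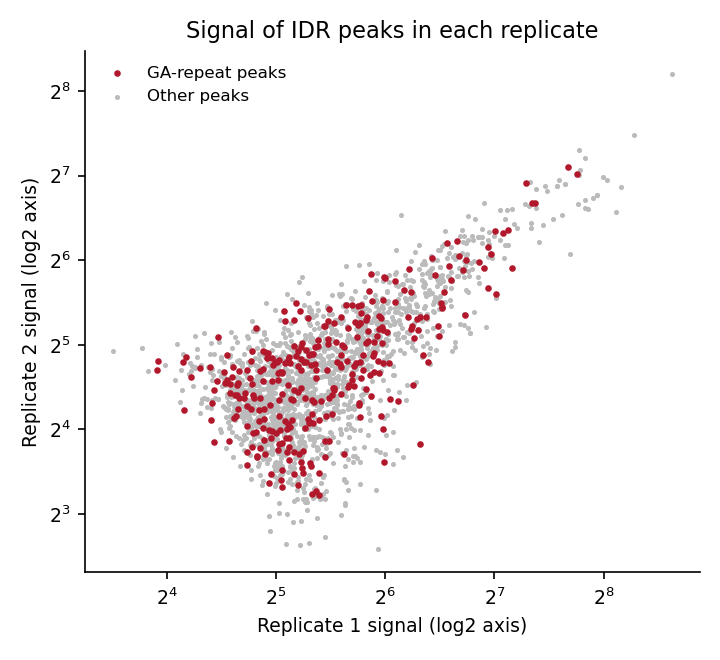
Signal of each IDR peak in replicate 1 (x axis, log2 scale) and replicate 2 (y axis, log2 scale) for GA-repeat peaks and other nuclear peaks listed in both replicates. The GA-repeat peaks spread through the cloud of the others, with Spearman's rho of 0.58 and 0.59.

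Of 19973 nuclear protein-coding genes, 168 (0.841%) had a GA-repeat peak in the window and 1353 (6.77%) another IDR peak, and 4 had both; GA-repeat peaks thus marked 11.1% of the 1517 genes with any peak (interval 9.54% to 12.8%). For the 81 genes of the cytosolic ribosome the counts were 2 with a GA-repeat peak and 60 with another peak, so that 3.23% of those with a peak had a GA-repeat peak (0.393% to 11.2%), an interval that includes part of the range for all genes. The ribosomal pair were rpl-29 (signal 125, 265 bp upstream, ranks 304 and 163) and rps-25 (43.4, 415 bp upstream, ranks 2270 and 1746). No GA-repeat peak was found at 33 proteasome subunit genes, 39 respiratory chain genes, 47 splicing factor genes or 32 aminoacyl-tRNA synthetase genes, of which 14, 15, 17 and 4 had another peak. At these counts the upper limits of the GA-repeat share are 23.2%, 21.8%, 19.5% and 60.2%, all above the 11.1% of all genes, so no deficit is shown for these lists. Mitochondrial ribosomal proteins had 1 against 12, at mrpl-40, and translation factors 1 against 16, at eef-1A.2.

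Of the 21 lists, the vacuolar ATPase was the 1 whose interval lay wholly above that of all genes, on a count of 5 genes. Of its 20 genes, which encode the proton pump of lysosomes, 3 had a GA-repeat peak and 2 another peak: vha-8 (signal 151, 440 bp upstream), vha-15 (93.4, 268 bp) and vha-13 (50.5, 535 bp), all subunits of the peripheral V1 sector. The interval of that share, 3 of 5 genes, ran from 14.7% to 94.7%. It rests on promoter windows: the peak at vha-8 was nearer to the 5′ end of C17H12.2 (146 bp). Counted by the nearest 5′ end within 2000 bp, 2 vacuolar ATPase genes had a GA-repeat peak and 2 another peak. No allowance was made for looking at 21 lists. The lists that follow include 11.1% in their intervals. Chaperone genes had 3 and 17 (15% of genes with a peak, 3.21% to 37.9%), with GA-repeat peaks at hsp-1 (signal 178), at dnj-13, an Hsp40 (115, 212 bp upstream), and at sti-1, a co-chaperone of Hsp90 (91.3, 88 bp upstream). Among genes for other bZIP factors 2 had a GA-repeat peak and 6 another (3.19% to 65.1%): xbp-1, the transcription factor of the unfolded protein response, with a signal of 170 only 26 bp upstream of the 5′ end, and zip-11 (42.9, 148 bp downstream). The transcription machinery had 2 and 10 (2.09% to 48.4%), at mdt-19 of Mediator (143) and taf-12 of TFIID (67.1), where the peak holds a 15-base run. The actin and tubulin list had 1 and 7, at cap-2, an actin capping protein (168), nuclear pore genes 1 and 11 (8.33% of genes with a peak), at npp-7 (76.8), nuclear hormone receptors 1 and 14 (6.67%), at nhr-1 (124), Ras-MAPK genes 1 and 1, at sur-2 (51.3), and core histones 2 and 4, at the pair his-67 and his-68, which share 1 peak (56.5). Chemoreceptor genes had 1 and 5, at srh-2 (49.5), whose peak was nearer to icl-1. None was found in the promoter windows of small GTPases, ceh homeobox genes, cuticle collagens or neuropeptides, which had 8, 2, 7 and 2 genes with another peak. The peaks near rho-1 lay outside its window. By the nearest 5′ end within 2000 bp, 2 small GTPase genes and 2 cuticle collagen genes had a GA-repeat peak.

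The X chromosome held 39 GA-repeat peaks (12.7%, interval 9.19% to 17.0%) and 294 other peaks (18.8%, 16.9% to 20.9%), a difference of -6.12 percentage points (-9.96 to -1.53). In the replicates alone the shares were 13.6% and 11.7% for entries with a run, against 18.9% and 18.1% without. X carried 16.1% of all GA runs and 17.7% of the nuclear genome, and 2.01% of its runs (1.48% to 2.65%) were at an IDR summit, against 2.40% of runs in the genome; the shares on II (1.88%) and V (1.92%) were lower still, so X did not stand out in this measure. The chromosome with the largest excess was IV, with 66 GA-repeat peaks (21.5%) and 243 others (15.6%).

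The AP-1 site did not separate the peaks. TGASTCA lay within 50 bp of the summit in 11 GA-repeat peaks (3.58%, interval 1.80% to 6.32%) and 61 other peaks (3.91%, 3.00% to 4.99%), a difference of -0.322 percentage points (-2.23 to 2.53), against 0.899% of genome tiles. In the replicates alone the shares were 2.50% and 2.75% with a run and 3.84% and 3.74% without. The centres of site and run were 26 to 92 bp apart in these 11 peaks, a distance that the search window limits. Of the 11, 2 were in promoter windows, 6 in introns and 3 intergenic outside them. Over all GA-repeat peaks these shares were 41.7%, 21.5% and 34.9%, and 11 peaks are too few for a comparison. The 11 included the peaks in introns of vhp-1 and rme-1 described above. Another lay 333 bp upstream of unc-112, which encodes a kindlin of muscle attachments (signal 88.8). The scrambled control TCASTGA was found in 3 GA-repeat peaks (0.977%) and 24 others (1.54%). Windows 400 bp to the side of the summit held TGASTCA in 1.95% of GA-repeat peaks (0.721% to 4.21%) and 1.09% of other peaks (0.635% to 1.74%). For GA-repeat peaks the intervals at the summit and to the side overlapped, while for other peaks they did not. The GA-repeat peaks are fewer (307 against 1562) and their intervals wider, so this contrast shows no difference between the sets. At the summit the interval of the GA-repeat peaks lay above the 0.899% of genome tiles.

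Of the other sequences searched, only the alternating C and A run differed beyond counting error. A run of at least 7 bases of C and A (GT on the other strand) lay in 40 GA-repeat peaks (13.03%) and 128 other peaks (8.19%), a difference of 4.83 percentage points (1.21 to 9.25), against 1.89% of genome tiles; in the replicates alone the shares were 14.6% and 7.74% in replicate 1 and 11.3% and 8.11% in replicate 2, where the interval of the difference included 0. The E-box CACGTG was in 2.28% of GA-repeat peaks and 4.16% of the others, the GC box GGGCGG in 3.58% and 5.12%, the GATA site TGATAA in 3.26% and 5.25%, the forkhead site TGTTTAC in 0.977% and 2.11%, runs of T and A in 0.651% and 0.576% and runs of C and G in 2.28% and 3.20%, all with intervals of the difference that included 0. The same held for the CRE site, at 1.30% and 0.896%. The GC content of the window had a median of 48.5% in GA-repeat peaks and 45.5% in other peaks, the run itself included.

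The sequence beside the run was richer in purines in the 307 peaks than beside the other runs of the genome. All genomic runs but the 307 taken are counted as other, so some of these also lie near an IDR summit. Read on the strand of G and A, the 20 bases on each side of the run had a median of 67.5% purines in the 307 peaks (interval 65.0% to 67.5%) and 60% in the other 14556 runs of the nuclear genome. At least 80% of these bases were purines in 40 peaks (13.03%) and in 910 other runs (6.25%). The G followed the rhythm of the repeat: over the 20 bases after the run, G made up 36.6% of the even positions and 24.2% of the odd ones at the peaks, and 27.3% and 23.9% at the other runs. At position 6 after the run, where the share of G at the peaks was highest, G reached 47.6% at the peaks and 33.0% at the other runs. T was at 9.45% and 20.5% there. The lengths of the runs differ between these sets, and the share that length has in this was not tested.

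The strand of the repeat was set against that of the nearest gene. GA lay on the strand of the gene with the nearest 5′ end in 119 of 307 peaks (38.8%, interval 33.3% to 44.5%), so CT was the more common reading, and in genomic runs away from IDR summits the share was 43.2% (a difference of -4.44 points, -9.78 to 1.17). In promoter windows GA was on the gene's strand in 54 of 128 peaks (42.2%) and in 34.2% of 3642 genomic runs, a difference of 7.98 percentage points (-0.376 to 16.8). Outside them it was 65 of 179 peaks (36.3%) and 46.2% of 10864 runs, a difference of -9.90 (-16.7 to -2.58). The intervals of the shares in peaks inside (33.5% to 51.2%) and outside (29.3% to 43.8%) promoter windows overlapped, and the difference between these places was not tested.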

How the data were processed

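The files used were 4 region lists in build ce11: the IDR list, the pooled list and 1 list per replicate. Per the deposited text files, the authors made each replicate's list from its own alignments and a shared control file, the pooled list from both replicates, and the IDR list from all of these; the aligner, peak caller and IDR threshold the sources used here do not give. Each entry has the authors' deposited signal, whose scaling is not stated and differs between lists, and a −log10 q value, which was deposited at 3.63 for all 307 peaks and not used to rank. Read depth is unknown.

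Sequence came from RefSeq's copy of WBcel235, the assembly called ce11, in which 0 entries ended past a chromosome end; gene models (19973 nuclear protein-coding genes) came from Ensembl release 115. Entries were placed by their summits. Overlap meant at least 1 bp; where several entries overlapped, the best ranked was taken. For a replicate alone, its top 1869 nuclear entries and their own summits were used. Motifs were searched on both strands in these windows, in windows 400 bp away and in tiles of the nuclear genome. Shares have Clopper-Pearson intervals, differences Newcombe intervals and medians order-statistic intervals, all at 95%; sequence search and intervals were tested on simulated data. Computation used Python 3.11.15, numpy 2.4.6, scipy 1.17.1 and matplotlib 3.10.9.

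Genes named were the nearest protein-coding 5′ ends of the 15 peaks of highest signal, the 8 with the longest runs, the 5 of lowest signal, the 3 with the largest and the 3 with the smallest ratio of replicate ranks, and up to 4 genes per list by signal; dna-2, sys-1, unc-112 and genes whose introns hold a peak were named after their values were seen. The 21 gene lists were made from symbols. The peaks and the lists were chosen with earlier results of these data known. The alternatives were other run lengths, windows, promoter definitions and overlap rules, the 934 IDR peaks of highest signal and each replicate alone; leaving out ribosomal protein genes, soft-masked runs or X, and the comparison of run lengths, were added after the data had been seen. The ce10 lists were not used here.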

Additional observations from a re-analysis of the deposited data

How the results depend on the processing

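The promoter deficit of GA-repeat peaks against the other peaks kept its direction under every alternative run. So did the smaller promoter share of long runs and the decline of GA runs with rank. Their intervals all excluded no difference. The promoter difference ranged from -36.4 percentage points (runs of at least 11 bases) to -15.0 (window of 2000 bp upstream), and from -16.5 to -16.0 with 1 replicate alone; the difference by run length was -31.8 and -28.5 with 1 replicate alone. The number of peaks was 114 and 69 with runs of at least 9 and 11 bases, 168 and 462 with 25 and 100 bp on each side of the summit, 164 among the 934 peaks of highest signal and 180 outside soft-masked sequence, all by construction, and 280 to 291 with 1 replicate alone; the distance from run to summit was 9 and 40 bp in the narrower and wider window.

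The deficit on X kept its direction but its interval included 0 with runs of at least 9 (-4.96) or 11 bases (-4.96), 100 bp on each side (-2.39), runs from either base (-3.02) and the 934 peaks of highest signal (-4.38); the cause was not tested. The share with GA on the gene's strand stayed below an even split between strands. Its interval included that split with runs of at least 11 bases (40.6%, fewer peaks) and with 5′ ends of 1 strand (40.2%, 107 peaks). With 1 replicate alone the share was 32.6% to 39.6%. Against genomic runs away from IDR summits, the main difference was within counting error (-4.44 points, -9.78 to 1.17). Ribosomal protein genes with a GA-repeat peak numbered 0 with runs of at least 9 or 11 bases, 1 among the 934 peaks of highest signal, and 1 to 4 with 1 replicate alone.

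Differences that were within counting error changed sign. The log2 ratio of median signals (0.07) was -0.0324 with runs of at least 11 bases and -0.0313 among the 934 peaks of highest signal, and 0.0400 to 0.152 with 1 replicate alone; in replicate 2 alone the intervals of the medians did not overlap. The difference in support by both replicates was 0.485 with 25 bp on each side, 1.59 among the 934 peaks of highest signal, 0.502 without ribosomal protein genes, 1.97 outside soft-masked sequence, 1.40 with reciprocal overlap, and 3.30 to 4.13 from 1 replicate's list to the other's. The AP-1 difference was 0.568 and 2.02 with runs of at least 9 and 11 bases, 0.814 with 100 bp on each side, 1.02 among the 934 peaks of highest signal and 0.24 on autosomes. The comparison by run length could not be made where runs of 7 bases or soft-masked runs were left out. No paired analysis was possible because all samples form a single group. Without read depth, a missing entry is not absence of binding.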
